A study of Mus musculus with 9 samples.

Results

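The genes described here are 9 genes of the epicardium and of mesothelium, taken by symbol from a table of 56748 genes: the keratin genes Krt8, Krt18 and Krt19, the surface protein genes Upk1b, Upk3b, Msln and Lrrn4, and the transcription factor genes Wt1 and Tbx18. Each symbol matched 1 gene, and all 9 were measured in all 9 libraries. The study sequenced messenger RNA from whole hearts of mouse pups on postnatal day 1 (P1). Its labels give 3 libraries each to wild type (WT), to pups without Cd36 in the whole body (CD36KO), and to pups described as having a knockout restricted to the heart (CD36CKO). Cd36 encodes a membrane protein that carries long-chain fatty acids into cells. Strain, sex, litter, the Cre line behind the restricted knockout and any allele that the groups share were not given in the sources used here. The labels also do not say that the replicates are separate animals, so p-values cover only how far these libraries spread, and part of that may be technical.

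The epicardium is the mesothelial sheet that covers the heart. Like other mesothelia and simple epithelia it holds keratin filaments, which are built from pairs of a type II keratin (Krt8) with a type I keratin (Krt18 or Krt19), and it displays mesothelin and uroplakins on its surface. In the embryo the transcription factors Wt1 and Tbx18 mark it, and some of its cells leave the sheet and give rise to fibroblasts and mural cells of the heart.

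The values are FPKM (fragments per kilobase of a transcript, relative to the size of the library), so they may be compared between genes per unit of length. Between 14409000 and 20725000 reads per library lay behind them. Of all genes, 12206 had a mean of at least 1 FPKM over the 9 libraries and were tested, and all 9 genes described here passed this filter, Lrrn4 as the lowest with a mean of 1.01 FPKM. Cd36 was at 146 ± 19.4 FPKM in WT and 65.7 ± 6.05 in CD36KO, whereas it was at 183 ± 18.8 (SD, n = 3) in the libraries labelled CD36CKO. The level in the last group did not show the loss its label names. Heart muscle genes listed for the ventricle were abundant in every library (13747 to 24193 FPKM summed over 10 genes). Actc1 alone was at 5186 to 10659 FPKM, beside 2074 to 5397 for Myl2, so the sum is not read as the share of ventricle. Some libraries stood apart. CD36KO 3 and the library labelled CD36CKO 3 carried Y-linked transcripts (27.4 and 25.8 FPKM over 4 genes, at most 0.247 elsewhere). The library labelled CD36CKO 3 also carried skeletal muscle transcripts (3969 FPKM over 14 genes, 392 to 840 elsewhere). CD36KO 1 carried lung and liver transcripts (25.9 FPKM over 14 genes, at most 10.0 elsewhere).

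Krt8 and Krt18 encode partner keratins and lie close together. The deposited table places Krt8 (ENSMUSG00000049382) at chr15:101905133-101912917 on the minus strand and Krt18 (ENSMUSG00000023043) at chr15:101936615-101940462 on the plus strand. Krt19 (ENSMUSG00000020911) is at chr11:100031636-100039491 on the minus strand, apart from both. The build of these positions is not given in the sources used here. Krt8 and Krt18 were both lower in the libraries labelled CD36CKO, and Tbx18 did not pass the test there, so the promoters of these 3 genes are shown, from 250 bases before to 50 bases after the start site in RefSeq's annotation of GRCm38.p6. Capitals mark matches, on either strand, to TATAAA as the TATA box, GGGCGG as the GC box, CCAAT as the CCAAT box, GGAATG as the core of a TEAD site or TGANTCA as the core of an AP-1 site.
Krt8 at chr15:102004293-102004592 on the minus strand: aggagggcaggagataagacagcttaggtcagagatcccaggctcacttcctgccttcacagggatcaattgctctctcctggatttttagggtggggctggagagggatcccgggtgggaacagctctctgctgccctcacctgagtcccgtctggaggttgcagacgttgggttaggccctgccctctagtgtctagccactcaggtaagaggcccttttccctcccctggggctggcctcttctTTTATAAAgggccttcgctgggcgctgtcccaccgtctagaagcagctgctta
Krt18 at chr15:102027966-102028265 on the plus strand: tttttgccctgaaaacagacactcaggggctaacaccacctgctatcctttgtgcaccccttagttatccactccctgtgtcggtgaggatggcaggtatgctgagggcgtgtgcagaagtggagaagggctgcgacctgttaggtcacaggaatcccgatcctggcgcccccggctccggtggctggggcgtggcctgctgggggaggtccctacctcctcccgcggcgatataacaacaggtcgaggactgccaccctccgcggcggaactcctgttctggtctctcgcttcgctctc
Tbx18 at chr9:87731211-87731510 on the minus strand: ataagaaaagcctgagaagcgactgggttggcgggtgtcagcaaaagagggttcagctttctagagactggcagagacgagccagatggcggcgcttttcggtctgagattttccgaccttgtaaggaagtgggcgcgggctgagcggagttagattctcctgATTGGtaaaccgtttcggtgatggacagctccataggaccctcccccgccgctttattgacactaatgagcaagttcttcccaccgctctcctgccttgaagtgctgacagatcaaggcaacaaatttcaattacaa
The Krt8 window held TATAAA on both strands in overlapping matches at the annotated start. The Krt18 window held none of the 5 sets of letters, and the Tbx18 window held CCAAT on the opposite strand. Of 32851 mouse promoters of the same length, 13.6% held the TATA box letters, 35.7% the GC box, 37.4% the CCAAT box, 14.7% the TEAD core and 7.81% the AP-1 core. The matches describe letters in these windows and no more. RefSeq promoters were matched for 5 of the 9 genes, and those of Upk3b and Lrrn4 each held GGAATG once.

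Krt8 and Krt19 fell in both labelled knockout groups, and Krt18 fell in the libraries labelled CD36CKO. Krt19, a type I keratin of simple epithelia, had the largest log2 difference from WT of the 9 genes in CD36KO. It stood at 11.2, 11.2 and 12.3 FPKM across WT 1 to 3, at 2.55, 2.80 and 2.01 across CD36KO 1 to 3, and at 5.07, 3.86 and 4.26 in the libraries labelled CD36CKO 1 to 3. The 3 groups did not overlap: every WT library lay above every library labelled CD36CKO, and each of those above every CD36KO library. The group means were 11.6 ± 0.649, 2.45 ± 0.406 and 4.40 ± 0.615 FPKM (SD, n = 3), so that CD36KO held 21.2% and the libraries labelled CD36CKO 37.9% of the WT level. Tested with limma on log2(FPKM + 1), Krt19 fell by 1.87 in CD36KO (SE 0.12, 95% interval -2.14 to -1.60, FDR = 0.000237) and by 1.23 in the libraries labelled CD36CKO (SE 0.12, interval -1.50 to -0.96, FDR = 0.000849). FDR is the Benjamini-Hochberg adjusted p over all 12206 genes, called below 0.05, and log2 changes on this scale understate the change of low genes. Between 64 and 420 reads lay behind each value. In whole-heart RNA, fewer cells that express a gene and less RNA per cell cannot be told apart, and the values do not show which cells carried the transcripts.

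Krt8, the type II partner, was at 3.29, 4.54 and 3.06 FPKM across WT 1 to 3, at 1.46, 1.67 and 1.93 across CD36KO 1 to 3, and at 1.95, 1.66 and 1.92 in the libraries labelled CD36CKO 1 to 3. All 6 libraries labelled as knockouts lay below all WT libraries, and the labelled knockout groups overlapped each other. Krt8 stood at 46.5% of the WT mean in CD36KO and at 50.8% in the libraries labelled CD36CKO. It fell by 0.77 (SE 0.14, FDR = 0.0102) and by 0.69 (SE 0.14, FDR = 0.0151) on the log2 scale. The second of these calls was lost without the library labelled CD36CKO 2 (-0.64, FDR = 0.0687). The pseudogene Krt8-ps, on chromosome 7, was at no more than 0.173 FPKM in any library, and Gm36026, on the strand opposite Krt8, at no more than 0.0353.

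Krt18, the type I partner of Krt8, was the most variable of these 3 keratins in WT. It measured 10.5, 8.29 and 17.7 FPKM across WT 1 to 3, 4.79, 8.57 and 5.91 across CD36KO 1 to 3, and 4.96, 4.72 and 3.70 in the libraries labelled CD36CKO 1 to 3. WT 3 was the highest, CD36KO 2 overlapped WT 2, and the libraries labelled CD36CKO lay below every WT library. Krt18 fell in the libraries labelled CD36CKO (-1.21, SE 0.26, FDR = 0.0198), to 36.7% of the WT mean, but this call was lost without the library labelled CD36CKO 2 (-1.25, FDR = 0.0666) or CD36CKO 3 (-1.11, FDR = 0.0554). The difference in CD36KO did not pass (-0.80, SE 0.26, interval -1.37 to -0.22, FDR = 0.0717), with a mean at 52.8% of WT; without WT 2 it passed (-1.02, FDR = 0.0480).

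**Figure D1:**
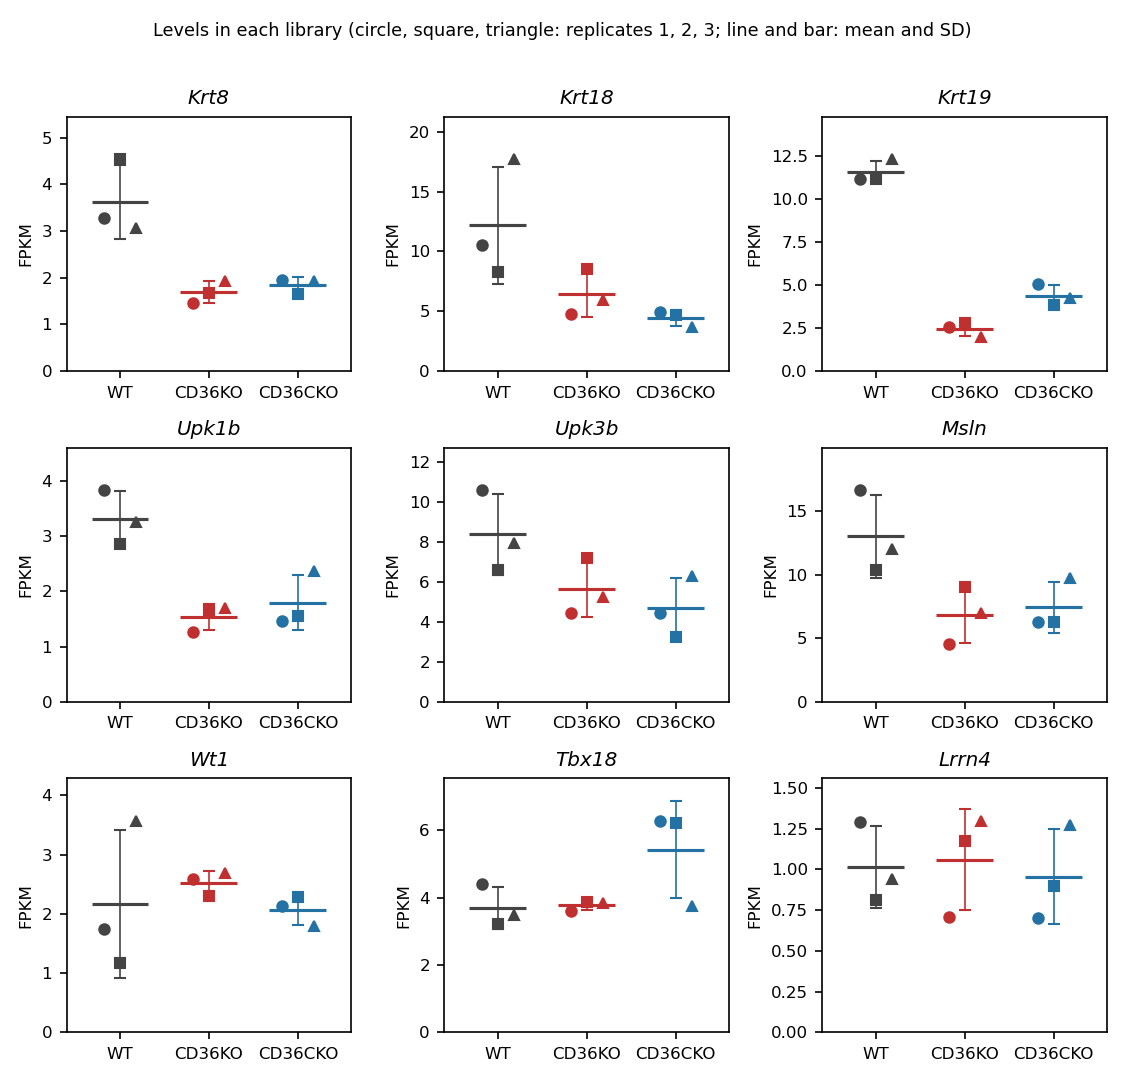
FPKM of the 9 genes in each library (vertical axes, linear, from 0) by genotype, with circles, squares and triangles for replicates 1, 2 and 3, a line for the mean and a bar for the SD (n = 3). Krt19 separates the 3 genotypes (means 11.6, 2.45 and 4.40), while the Wt1 libraries span 1.17 to 3.57 in WT alone and the Lrrn4 libraries overlap between all groups.

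The plot of levels by library sets the keratins beside the mesothelial surface proteins, of which Upk1b passed the test in both comparisons with WT. Upk1b, a tetraspanin of the uroplakin family (ENSMUSG00000049436, chr16:38593546-38620690, minus strand), measured 3.84, 2.86 and 3.26 FPKM across WT 1 to 3, 1.26, 1.66 and 1.70 across CD36KO 1 to 3, and 1.47, 1.55 and 2.38 in the libraries labelled CD36CKO 1 to 3. Every WT library lay above every library labelled as a knockout. Upk1b fell by 0.77 in CD36KO (SE 0.15, FDR = 0.0144) and by 0.63 in the libraries labelled CD36CKO (SE 0.15, FDR = 0.0273), where it held 46.3% and 54.2% of the WT mean. The call in CD36KO was lost without WT 1 (-0.68, FDR = 0.0501) or CD36KO 1 (-0.68, FDR = 0.0614). The other call was lost without WT 1 (-0.55, FDR = 0.0817) and without the libraries labelled CD36CKO 1 (-0.55, FDR = 0.0803) or CD36CKO 2 (-0.58, FDR = 0.109).

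Msln encodes mesothelin, a glycoprotein anchored on the surface of mesothelial cells, and was the most abundant of the 9 genes in WT (ENSMUSG00000063011, chr17:25967587-25973352, minus strand). Its levels were 16.7, 10.3 and 12.0 FPKM across WT 1 to 3, 4.51, 9.04 and 7.02 across CD36KO 1 to 3, and 6.28, 6.28 and 9.76 in the libraries labelled CD36CKO 1 to 3. The WT libraries lay above all others, by the least between WT 2 and the library labelled CD36CKO 3. With means at 52.7% and 57.1% of WT, neither difference passed (-0.85, SE 0.25, interval -1.41 to -0.30, FDR = 0.0520 in CD36KO, and -0.73, interval -1.29 to -0.17, FDR = 0.0799 in the libraries labelled CD36CKO). The first passed without WT 3 (-0.89, FDR = 0.0488) and also without the library labelled CD36CKO 3 (-0.85, FDR = 0.0495), which enters only through the shared spread.

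Upk3b, an uroplakin of mesothelial cells (ENSMUSG00000042985, chr5:136067350-136075341, plus strand), was at 10.6, 6.60 and 7.92 FPKM across WT 1 to 3, at 4.44, 7.16 and 5.25 across CD36KO 1 to 3, and at 4.43, 3.24 and 6.30 in the libraries labelled CD36CKO 1 to 3. CD36KO 2 lay above WT 2, and the libraries labelled CD36CKO all lay below WT. Neither difference passed (-0.50, interval -1.01 to 0.01, FDR = 0.172 in CD36KO, and -0.74, interval -1.25 to -0.23, FDR = 0.0613 in the libraries labelled CD36CKO). Without the library labelled CD36CKO 3 the second passed (-0.94, FDR = 0.0415).

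Neither transcription factor gene passed the test in any comparison. Wt1, a zinc finger factor that epicardial cells express in the embryo and after injury (ENSMUSG00000016458, chr2:104956874-105003961, plus strand), measured 1.75, 1.17 and 3.57 FPKM across WT 1 to 3, 2.59, 2.30 and 2.68 across CD36KO 1 to 3, and 2.14, 2.29 and 1.79 in the libraries labelled CD36CKO 1 to 3. WT held both the lowest and the highest library, so the groups overlapped. The log2 difference was 0.23 in CD36KO (interval -0.28 to 0.73, FDR = 0.534) and 0.02 in the libraries labelled CD36CKO (interval -0.49 to 0.53, FDR = 0.953). Without WT 3 the first was 0.53 and passed (FDR = 0.0239).

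Tbx18, a T-box factor of the epicardium and of mural cells (ENSMUSG00000032419, chr9:87584853-87613313, minus strand), was at 4.40, 3.22 and 3.48 FPKM across WT 1 to 3, at 3.60, 3.86 and 3.84 across CD36KO 1 to 3, and at 6.29, 6.22 and 3.77 in the libraries labelled CD36CKO 1 to 3. The libraries labelled CD36CKO 1 and 2 lay above all others. The library labelled CD36CKO 3 lay among the rest. The difference from WT was 0.03 in CD36KO (interval -0.35 to 0.40, FDR = 0.924) and 0.43 in the libraries labelled CD36CKO (interval 0.06 to 0.81, FDR = 0.112). Without the library labelled CD36CKO 3 the second was 0.63 and passed (FDR = 0.0254). The gene on the strand opposite Tbx18, D030062O11Rik, was at no more than 0.159 FPKM.

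Lrrn4, a leucine-rich repeat membrane protein found in mesothelium (ENSMUSG00000043110, chr2:132710225-132722811, minus strand), was the lowest of the 9 genes. It measured 1.29, 0.813 and 0.939 FPKM across WT 1 to 3, 0.707, 1.17 and 1.30 across CD36KO 1 to 3, and 0.700, 0.895 and 1.27 in the libraries labelled CD36CKO 1 to 3. The 3 groups overlapped over nearly their whole range. The differences from WT were 0.03 (interval -0.34 to 0.40, FDR = 0.929) and -0.05 (interval -0.42 to 0.33, FDR = 0.869), with 54 to 97 reads behind each value.

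**Figure D2:**
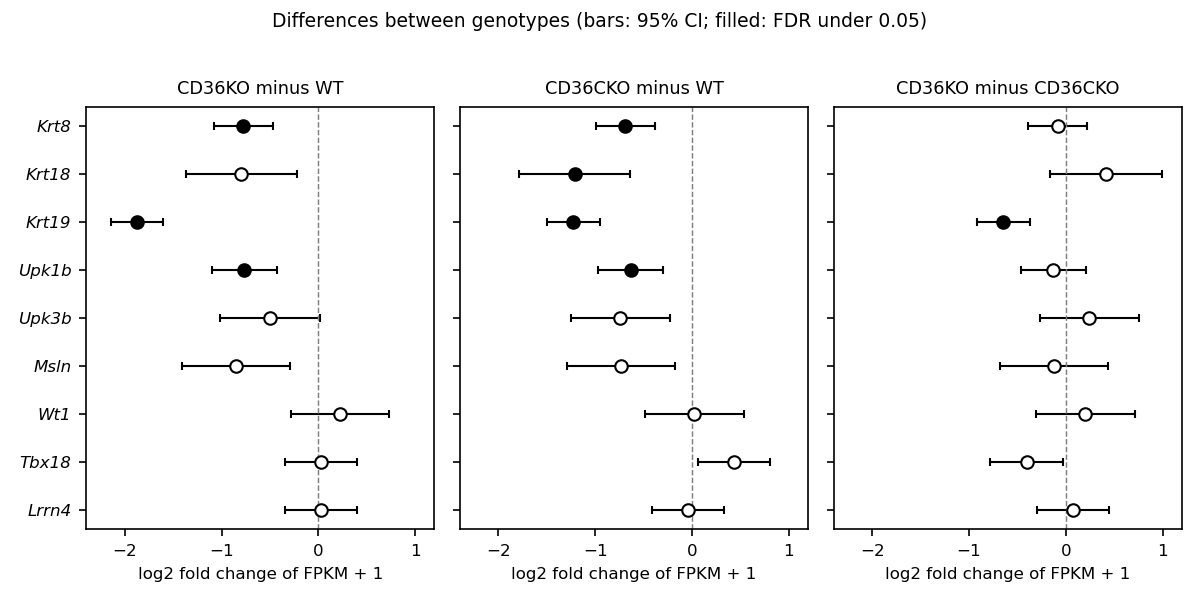
Log2 fold change of FPKM + 1 for the 9 genes (horizontal axes) in CD36KO against WT, in the libraries labelled CD36CKO against WT, and between both labelled knockout groups, with bars for the 95% interval and filled points for FDR under 0.05. Filled points lie below 0 in each panel: 3 genes, 4 genes and, between the labelled knockouts, Krt19 alone (-0.65).

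In CD36KO, 3 of the 9 genes passed the test and all 3 were lower (Krt8, Krt19 and Upk1b), where 6.7% of all tested genes were lower, 5.81% were higher and 12.5% passed in either direction. In the libraries labelled CD36CKO, 4 of the 9 passed and were lower (the same 3 and Krt18), where 7.32% of all tested genes were lower, 5.36% were higher and 12.7% passed in either direction. The median log2 difference of the 9 genes was -0.77 and -0.69, beside -0.01 and 0.00 over all tested genes. Libraries did not overlap, with WT above, for 4 genes in CD36KO (Krt8, Krt19, Upk1b and Msln), against 17.8% of all tested genes. In the libraries labelled CD36CKO the same held for 6 genes (those 4, Krt18 and Upk3b), against 17%. The plot of fold changes shows that the 6 keratin and surface genes other than Lrrn4 had estimates below 0 in both comparisons. These 2 comparisons share the WT libraries, so a low value in both is not independent evidence.

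Between the labelled knockout groups, 1 of the 9 genes passed (Krt19, lower in CD36KO), where 1.93% of all tested genes were lower, 2.61% were higher and 4.53% passed in either direction. The difference of -0.65 for Krt19 (SE 0.12, interval -0.92 to -0.37, FDR = 0.0203) means that its distance from WT was greater in CD36KO. The direction held without any single library, from -0.72 to -0.55, but the call was lost without CD36KO 1 (FDR = 0.0666), without CD36KO 3 (FDR = 0.0876), and without any of the libraries labelled CD36CKO 1, 2 or 3 (FDR = 0.0567, 0.0604 and 0.0523). The intervals of the other genes all held 0 except that of Tbx18 (-0.78 to -0.03, FDR = 0.199), which passed without the library labelled CD36CKO 3 (-0.61, FDR = 0.0444). Krt18 pointed the other way from Krt19 (0.42, interval -0.16 to 0.99, FDR = 0.377), and Krt8 was at -0.08 (interval -0.39 to 0.22, FDR = 0.765). Besides Krt19, which lay below, only Wt1 had libraries that did not overlap, with CD36KO above, against 17.3% of all tested genes below and 19.4% above.

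The order of the levels changed with genotype. In WT, Msln (13.0 ± 3.27 FPKM), Krt18 (12.2 ± 4.92) and Krt19 (11.6 ± 0.649) led with overlapping libraries, followed by Upk3b (8.37 ± 2.03), whose libraries lay below those of Krt19 but overlapped those of Msln and Krt18. Tbx18 (3.70 ± 0.619), Krt8 (3.63 ± 0.796), Upk1b (3.32 ± 0.492) and Wt1 (2.17 ± 1.25) overlapped as neighbours, and Lrrn4 (1.01 ± 0.249) was last, overlapping Wt1. In CD36KO, Krt19 moved from the third place to the sixth, behind Msln (6.86 ± 2.27), Krt18 (6.42 ± 1.94), Upk3b (5.62 ± 1.40), Tbx18 (3.77 ± 0.143) and Wt1 (2.52 ± 0.201), whose libraries overlapped its own. In the libraries labelled CD36CKO, Msln (7.44 ± 2.01) was followed by Tbx18 (5.42 ± 1.44), Upk3b (4.66 ± 1.55), Krt18 (4.46 ± 0.668) and Krt19 (4.40 ± 0.615), with libraries that overlapped from neighbour to neighbour. Summed, the 9 genes reached 63.5, 49.1 and 64.3 FPKM across WT 1 to 3, 25.9, 38.2 and 31.6 across CD36KO 1 to 3, and 33.3, 30.7 and 35.2 in the libraries labelled CD36CKO 1 to 3. Every WT sum lay above every sum in the labelled knockouts.

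Within each library, Krt19 made up 51.6%, 57.5% and 41.1% of Krt18 and Krt19 together across WT 1 to 3, 34.8%, 24.6% and 25.3% across CD36KO 1 to 3, and 50.5%, 45.0% and 53.5% in the libraries labelled CD36CKO 1 to 3. CD36KO lay below both other groups without overlap, while WT and the libraries labelled CD36CKO overlapped. The log2 ratio of Krt19 to Krt18, taken on FPKM + 1, differed by -1.08 between CD36KO and WT and by -1.06 between CD36KO and the libraries labelled CD36CKO (exact permutation test over libraries, two-sided, p = 0.1 for each, the smallest p that 3 against 3 allows). Between the libraries labelled CD36CKO and WT it differed by -0.01 (exact p = 1). The pseudocount moves these values, and ratios of plain FPKM, which do not depend on the scaling of a library, were added after seeing the data. On that scale the 3 differences were -1.36, -1.34 and -0.02 (exact p = 0.1, 0.1 and 0.9). The plain log2 ratio of Krt8 to Krt18 differed from WT by -0.20 in CD36KO (exact p = 0.9), where FPKM + 1 gave 0.02, and by 0.43 in the libraries labelled CD36CKO (exact p = 0.5), where FPKM + 1 gave 0.52. It was lower in CD36KO than in the libraries labelled CD36CKO without overlap (-0.63 plain and -0.50 on FPKM + 1, exact p = 0.1 for each). The sum of Krt18 and Krt19 was 4.10 to 9.81 times the level of Krt8 over all libraries, per unit of length.

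**Figure D3:**
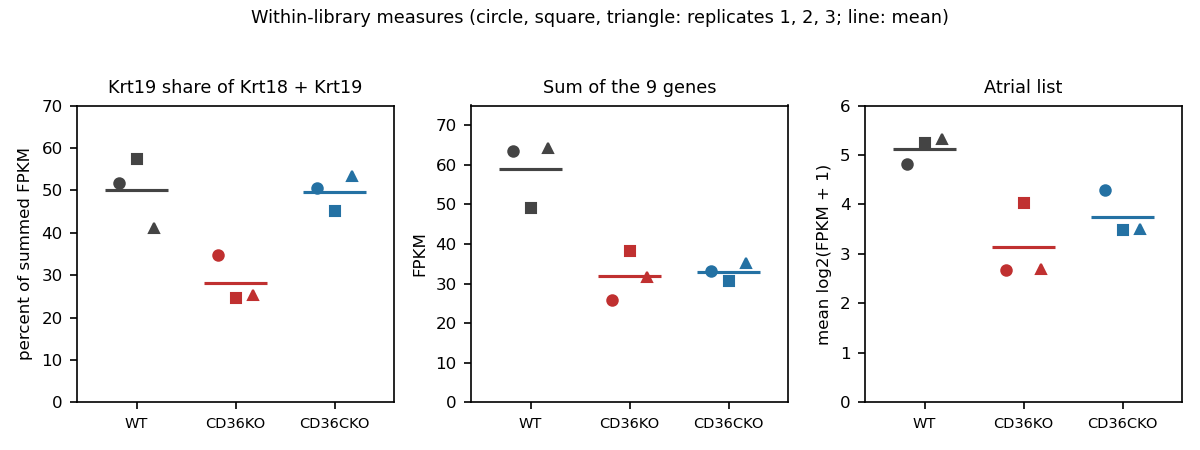
Left, Krt19 as a percent of the summed FPKM of Krt18 and Krt19; middle, summed FPKM of the 9 genes; right, mean log2(FPKM + 1) of 14 atrial genes, each by genotype, with circles, squares and triangles for replicates 1, 2 and 3 and a line for the mean. CD36KO is low in the left panel (24.6% to 34.8%), whereas both labelled knockout groups lie below WT in the other panels.

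Several genes ranked the libraries within a genotype alike. Upk1b, Upk3b, Msln, Tbx18 and Lrrn4 all ranked WT 1 above WT 3 above WT 2. Upk1b and Lrrn4 had the same order of libraries in all 3 genotypes, and Upk3b and Msln in WT and CD36KO. Krt8 and Krt18 had the same order in 0 of the 3 genotypes. With 3 libraries per genotype these orders are a description. The ratio of Msln to Upk3b was 1.58, 1.57 and 1.52 across WT 1 to 3, 1.02, 1.26 and 1.34 across CD36KO 1 to 3, and 1.42, 1.94 and 1.55 in the libraries labelled CD36CKO 1 to 3, so the CD36KO libraries were the lowest 3.

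**Figure D4:**
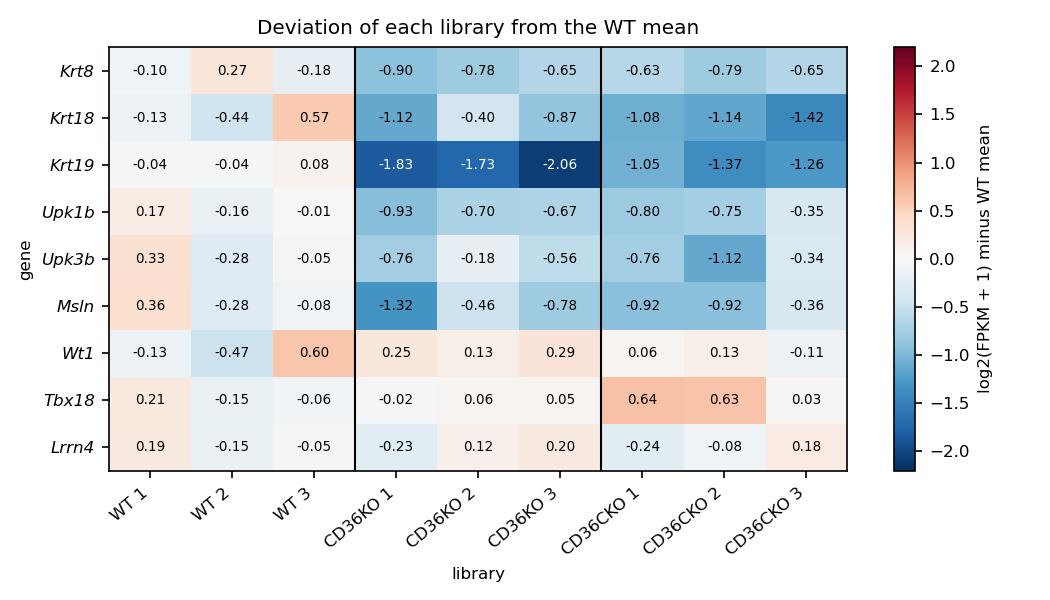
Deviation of each library from the WT mean of the same gene, in log2(FPKM + 1), with genes in rows and libraries in columns, blue for lower and red for higher. The deepest values are those of Krt19 in CD36KO (-2.06 to -1.73), and the library labelled CD36CKO 3 stands nearer to WT than replicates 1 and 2 of its group for Upk1b, Upk3b, Msln and Tbx18.

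The map of deviations shows where a single library carried a difference. The library labelled CD36CKO 3 deviated from the WT mean by -0.35 for Upk1b, -0.34 for Upk3b, -0.36 for Msln and 0.03 for Tbx18, against -0.80 and -0.75, -0.76 and -1.12, -0.92 and -0.92, and 0.64 and 0.63 in replicates 1 and 2 of its group. It had the lowest Krt18 of all libraries (-1.42). This is the library with skeletal muscle and Y-linked transcripts, and their part in these differences was not tested. CD36KO 1, the library with lung and liver transcripts, had the lowest Krt8 (-0.90), Msln (-1.32) and Upk1b (-0.93) of all libraries.

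Few other keratins were present. Of 53 protein-coding keratin genes in the table, 23 were at 0 in every library and 6 had a mean of at least 1 FPKM, namely Krt18, Krt19, Krt10, Krt8, Krt222 and Krt80. Krt7, a type II keratin of simple epithelia and mesothelium, was below the filter and entered no test at the stated threshold. It was at 1.57, 1.32 and 0.912 FPKM across WT 1 to 3, 0.427, 0.355 and 0.412 across CD36KO 1 to 3, and 0.590, 0.520 and 0.594 in the libraries labelled CD36CKO 1 to 3, with no overlap between WT and either labelled knockout group. With the filter lowered to a mean of 0.5 FPKM it was lower in CD36KO (-0.69, FDR = 0.0133) and in the libraries labelled CD36CKO (-0.52, FDR = 0.0323). Krt14, a type I keratin of basal epidermis, was at 0.899 to 1.84 FPKM in WT, between 0.190 and 0.474 in CD36KO, and between 0.461 and 0.672 in the libraries labelled CD36CKO. With the lowered filter it too was lower in both (-0.84, FDR = 0.0153, and -0.61, FDR = 0.0425).

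Other genes listed for the epicardium and mesothelium passed the test in both directions, though whole-heart values do not show which cells carried their transcripts. Of 26 such genes, 16 were tested, and in CD36KO 3 rose and 3 fell (median -0.05), while in the libraries labelled CD36CKO 2 rose and 1 fell (median 0.17). Of all tested genes, 5.81% rose and 6.7% fell in the first comparison, and 5.36% and 7.32% in the second. Aldh1a2, the enzyme that makes retinoic acid in the embryonic epicardium, was at 7.55, 6.20 and 5.20 FPKM across WT 1 to 3, at 15.9, 16.9 and 22.0 across CD36KO 1 to 3, and at 9.35, 6.74 and 9.56 in the libraries labelled CD36CKO 1 to 3. CD36KO lay above all other libraries, and Aldh1a2 rose there by 1.40 (FDR = 0.00330), also relative to the libraries labelled CD36CKO (1.01, FDR = 0.0156). Ezr, which links membrane to actin in microvilli, was at 43.5 ± 4.33 FPKM in WT, rose in CD36KO to 65.8 ± 3.79 (0.59, FDR = 0.0141) and rose to 61.1 ± 3.62 where the label was CD36CKO (0.49, FDR = 0.0273). Cldn15, a claudin of tight junctions, fell in CD36KO (2.43 to 3.08 FPKM against 4.43 to 5.29 in WT; -0.67, FDR = 0.00775) but was at 5.35 to 6.32 in the libraries labelled CD36CKO, a difference between the labelled knockouts of -0.90 (FDR = 0.00845).

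Nkain4, a membrane protein gene of this list, fell in both groups, with 8.14 to 13.3 FPKM in WT against 3.82 to 7.45 in CD36KO (-0.79, FDR = 0.0434) and 4.39 to 5.61 in the libraries labelled CD36CKO (-0.92, FDR = 0.0271). Tcf21, a factor of epicardial cells that become fibroblasts, is also among the genes listed here for fibroblasts. It was at 12.4 to 13.1 FPKM in WT, between 9.80 and 10.6 in CD36KO, and between 16.5 and 22.9 in the libraries labelled CD36CKO. The groups did not overlap, and Tcf21 rose in the libraries labelled CD36CKO (0.50, FDR = 0.0344) and was lower in CD36KO than there (-0.80, FDR = 0.0124). Also in CD36KO, the sulfatase gene Sulf1 rose (0.46, FDR = 0.0229) and the annexin gene Anxa8 fell (-0.90, FDR = 0.0498). The annotation places a gene on the opposite strand over Aldh1a2, Ezr, Nkain4, Tcf21 and Anxa8, over Krt7 above, and over Fn1, Slit3 and Bmp4, which are described next. Since use of the strand in counting is not given in the sources used here, their values are uncertain to that extent. The mesothelial gene Bnc1 (at most 0.561 FPKM) and the mucin gene Muc16 (at most 0.0876) were too low to test. Dmkn and Sema3d of this list were tested only with the filter lowered to a mean of 0.5 FPKM. Dmkn was then lower in CD36KO (-0.75, FDR = 0.0250) but did not pass in the libraries labelled CD36CKO (-0.55, FDR = 0.0620). Sema3d, which also has a gene on the opposite strand, passed in neither.

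**Figure D5:**
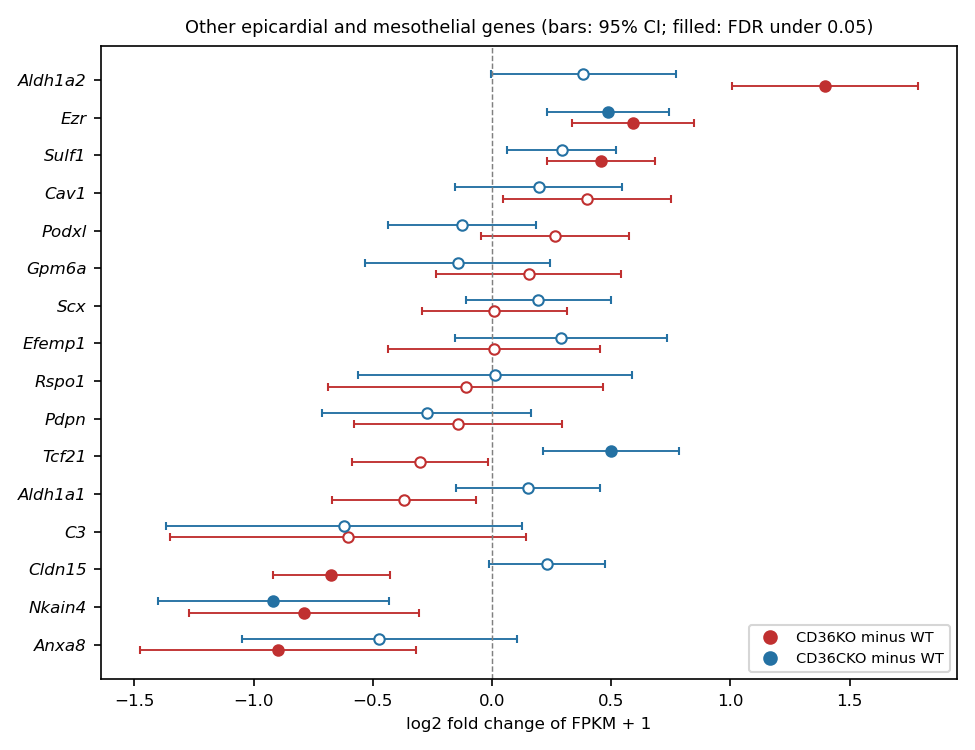
Log2 fold change of FPKM + 1 against WT (horizontal axis) for the 16 tested genes of the second list of epicardial and mesothelial genes, red for CD36KO and blue for the libraries labelled CD36CKO, with bars for the 95% interval and filled points for FDR under 0.05. Filled points fall on both sides of 0, from Anxa8 (-0.90) to Aldh1a2 (1.40) in CD36KO.

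The plot of these 16 genes shows calls in both directions, unlike the 9 genes above, whose calls were all lower; the difference between the lists was not tested. Genes of the step in which epicardial cells leave the sheet, and of the cells they form, gave 1 call of 15 tested in CD36KO and 3 in the libraries labelled CD36CKO, against 12.5% and 12.7% of all tested genes. In CD36KO the repressor gene Snai1 fell (2.18 to 2.71 FPKM against 3.54 to 4.17 in WT; -0.51, FDR = 0.0159). In the libraries labelled CD36CKO its relative Snai2 rose (0.50, FDR = 0.0358), while the intermediate filament gene Vim (-0.64, FDR = 0.0283) and the fibronectin gene Fn1 (-0.72, FDR = 0.0224) fell. Of 9 tested genes (with the same background) for signals sent or received by the epicardium, the guidance ligand Slit3 (-0.90, FDR = 0.0222) and Bmp4 (-0.38, FDR = 0.0443) fell in CD36KO, and the chemokine Cxcl12 rose in the libraries labelled CD36CKO (0.48, FDR = 0.0442). Of 6 tested genes of desmosomes and other keratin linkers, 0 passed in any comparison. Among other uroplakins, Upk1a (0.655 to 1.69 FPKM) was tested and did not pass, and Upk2 was at 0 in every library.

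Keratins also mark other epithelia that a dissected heart might carry, and the genes of those lists ranged from 0 to a few FPKM. Epcam was at no more than 0.0993 FPKM and Cdh1 at no more than 0.0522 in any library, and the thymic epithelial gene Foxn1 was at 0 in all 9. The epidermal keratin Krt5 was at no more than 0.180 FPKM. The 11 genes of the skin list summed to 9.30 to 14.9 FPKM in WT, between 8.03 and 9.68 in CD36KO, and between 5.85 and 11.5 in the libraries labelled CD36CKO, and 3 of them were tested with 0 calls. Its highest values were those of Lgals7 (1.75 to 5.74 FPKM), Krt10 (0.876 to 4.50), Sfn (0.846 to 3.08) and Krt14. Krtdap was seen in WT alone (0.0802 to 0.292), and Trp63 was at 0.106 to 0.167 in WT and at most 0.104 elsewhere. Some genes of the skin list were thus higher in WT, and these 2 lay near the floor. Krt14, given above, was also higher in WT, without overlap with either labelled knockout group. Lgals7 had a mean of 4.88 FPKM in WT, 2.37 in CD36KO and 3.38 in the libraries labelled CD36CKO. The means of Lor were 0.951, 0.479 and 0.516. Others did not follow in both groups. Krt10 had a mean of 2.09 FPKM in WT, 3.45 in CD36KO and 2.28 in the libraries labelled CD36CKO. In the same order, the means of Sfn were 2.34, 2.24 and 1.30, and those of Col17a1 were 0.0837, 0.0847 and 0.142. The 14 genes of the lung, gut and liver list summed to 4.58 to 10.0 FPKM in WT and, outside CD36KO 1, to 0.709 to 1.10 in the labelled knockouts, with Alb at 2.26 to 5.35 in WT. The part of either list in the keratin differences was not tested. In CD36KO 1 the lung, gut and liver sum was 25.9, led by Alb (8.51), Apoa1 (8.16) and Sftpc (4.90). There Krt19 was at 2.55 FPKM, within the range of its group, and Krt8 at 1.46, the lowest of all libraries.

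Atrial genes were also lower in the labelled knockout groups. All 14 genes of the atrial list were tested, and 10 were lower in CD36KO and 6 in the libraries labelled CD36CKO, where 6.7% and 7.32% of all tested genes were lower. Their mean log2(FPKM + 1) was 4.82, 5.24 and 5.32 across WT 1 to 3, 2.68, 4.03 and 2.70 across CD36KO 1 to 3, and 4.29, 3.48 and 3.50 in the libraries labelled CD36CKO 1 to 3, so that WT lay above both labelled knockout groups. With this mean as a covariate, 0 of the 9 genes passed in any comparison and 0 genes of all those tested passed in CD36KO (788 had an unadjusted p under 0.05). The estimates for Krt19 were then -1.47 (FDR = 0.562) and -0.95 (FDR = 0.112), and that for Krt18 in CD36KO was 0.04. Since no WT library overlapped a library labelled as a knockout in this mean, a change that goes with atrial tissue cannot be told apart from a change that goes with genotype. Atrial genes were not alone in this split. All 6 tested genes of the erythroid list had estimates below 0 in both comparisons with WT, with 0 calls. Of the 12206 tested genes, 6282 and 6113 had estimates below 0. Mitochondrially encoded transcripts took 4.55% to 8.89% of reads in WT and 10.3% to 14.3% in the labelled knockouts, and with these and haemoglobin genes removed Krt8 and Krt19 were still called in both comparisons, whereas Upk1b was not (-0.66, FDR = 0.0548, and -0.44, FDR = 0.113) nor Krt18 in the libraries labelled CD36CKO (-0.98, FDR = 0.0622), and Tbx18 passed there as higher (0.66, FDR = 0.0489).

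Over the 9 libraries, the tested protein-coding genes whose log2 values ran most like those of Krt19 were Tgfb3, a TGF-beta ligand (Pearson r = 0.975), Trnp1 (0.974) and the splicing factor gene Prpf6 (0.971), out of 10802 searched. For Krt8 they were Aprt (0.987), Mvb12a (0.985) and Pcbp4 (0.984). For Msln they were Upk1b (0.946), Hmgn3 (0.928) and Btrc (0.926). The points share the 3 genotypes and the same libraries, so these values describe the pattern and carry no p.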

How the data were processed

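The authors deposited FPKM values per gene for 9 whole-heart libraries, with identifier, symbol, biotype, position and length, per the file headers. Messenger RNA was selected by its poly-A tail and made into directional dUTP libraries, per the labels' protocols. CASAVA, HISAT2, HISAT and TopHat2 are listed without versions, per the submitters' processing notes, and the read counter, genome build and annotation were not given in the sources used here. FPKM scales each library to its total, so abundant transcripts lower all others. Reads were recovered from FPKM and gene length, and 100% of values were whole to within 0.05 reads. They served to give depth, and counting error is the only error depth covers.

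Genotypes were compared with limma 3.58.1 in R 4.3.3 (trend, two-sided) on log2(FPKM + 1) over 12206 genes, those whose mean reached 1 FPKM, with the 3 genotypes fitted together (6 residual degrees of freedom, 3.68 from the prior). Benjamini-Hochberg adjustment ran over all these genes, with a threshold of 0.05. On simulated data the procedure was tested before use. Ratios of genes within a library were compared by exact permutation (scipy 1.17.1).

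The members and gene lists were chosen with earlier results of these data known, so counts over them carry no test of their own. The text names all 9 members, and of each other list at most the 3 genes with the smallest p in each comparison among those past the threshold. Cd36 checks the labels, and marker lists are given by their sums and defining genes. Sulf1, Anxa8, Krt7, Krt14, Krt80, Krt222, Col17a1, Lor, Dmkn, Sema3d, Bnc1, Muc16 and Upk1a were named after their values were seen. So were the lowest or highest values of marker genes. Ratios of plain FPKM were added after seeing the data. The 21 alternatives covered the pseudocount, the filter, the scaling, library weights, subsets of libraries, a replicate block and an atrial covariate. Promoter sequences come from RefSeq (GRCm38.p6), and the deposited positions, of an unstated build, were not combined with them.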

Additional observations from a re-analysis of the deposited data

Results flagged for a closer look

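Krt19 differed in its change from WT between the labelled knockout groups: it was lower by 0.65 on the log2 scale in CD36KO than in the libraries labelled CD36CKO (-0.65, limma, FDR = 0.0203), and all 3 CD36KO libraries lay below all 3 of the others. The WT mean cancels in this difference of changes, and the WT libraries enter only through the shared spread. The call did not survive the loss of any of 5 of the 6 libraries labelled as knockouts.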

How the results depend on the processing

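Over 21 alternatives, Krt19 kept its direction against WT in all, and its call in 20 in CD36KO and in 20 in the libraries labelled CD36CKO; each call was lost with the atrial covariate. Of 20 alternatives, Krt8 was called in 18 and 17 and Upk1b in 16 and 13. Krt18 was called in 15 of 21 in the libraries labelled CD36CKO.

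The genes called of all tested were 1527 in CD36KO against WT, 1547 in the libraries labelled CD36CKO against WT and 553 between the labelled knockouts. Without a filter they were 743, 753 and 169, and 2 and 0 of the 9 genes were called in the last 2 comparisons. With a mean of at least 5 FPKM they were 1000 and 338 in the last 2, with 2 of the 4 genes left called in the libraries labelled CD36CKO. Removing mitochondrial and haemoglobin genes gave 361 between the labelled knockouts. It took the median log2 difference of all genes against WT from -0.012 to 0.10 and from -0.00091 to 0.22. The lower share of calls went from 53.6% to 31.1% and from 57.7% to 20.0%. With quantile normalization these shares were 45.9% and 49.7%. Library weights gave 6849, 6124 and 2417 genes and 7 of the 9 in CD36KO. Fits of only the genotypes compared gave 838, 504 and 1364. Without the libraries with Y-linked transcripts the counts were 200, 412 and 48, with 2 and 0 of the 9 genes in the last 2 comparisons. The atrial covariate gave 0, 10 and 80 genes and 0 of the 9 throughout.

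Same-numbered libraries did not deviate together (r from -0.43 to 0.14, beside -0.29 to 0.35 for libraries of different number). These values cannot settle whether the numbers pair the libraries, and the labels do not say so. With the replicate block 1004 and 963 genes were called against WT, and 3, 4 and 1 of the 9, as without it.

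Leaving out a library gave 405 to 3203, 330 to 3950 and 29 to 1463 genes, and 2 to 5, 1 to 5 and 0 to 1 of the 9. For all tested genes, the lowest counts were without CD36KO 1, without the library labelled CD36CKO 2 and without CD36KO 3, and the highest without WT 3. The log2 ratio of Krt19 to Krt18 ranged from -1.32 to -0.88, -0.26 to 0.19 and -1.25 to -0.94. That of Krt8 to Krt18 ranged from -0.35 to 0.38, 0.15 to 0.88 and -0.60 to -0.30.

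Reversals were of values that did not pass. Against WT in CD36KO, Lrrn4 was at -0.015 (quantile), -0.14 (weights), -0.058 (without Y-linked libraries) and -0.095 (atrial covariate), Tbx18 at -0.17 (weights), Krt18 at 0.039 (atrial covariate), and the Krt8 to Krt18 ratio at -0.17 and -0.065 with pseudocounts of 0.1 and 0.5 and at -0.20 with none. In the libraries labelled CD36CKO, Wt1 was at -0.027 (quantile) and Lrrn4 at 0.086 (mitochondrial and haemoglobin genes removed). Between the labelled knockouts, Msln was at 0.031 (without Y-linked libraries). Leaving out a library turned Lrrn4 (-0.058 to 0.16, -0.16 to 0.051 and -0.022 to 0.20), Wt1 (-0.010 to 0.53 and -0.21 to 0.32 against WT), Tbx18 (-0.044 to 0.13 in CD36KO) and, between the labelled knockouts, Msln (-0.32 to 0.11) and Upk1b (-0.21 to 0.011). The cause of each was not tested. Counting limits Krt8, Upk1b and Lrrn4 most, with 51, 54 and 54 reads in their lowest libraries.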
